A study of Homo sapiens with 8 samples.

Results

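The BCL2 family decides at the mitochondrion whether a cell starts apoptosis, and 10 of its genes were followed here: BCL2L1, MCL1, BCL2, BAX, BAK1, BCL2L11, BMF, BIK, PMAIP1 and BID. They were chosen by gene symbol. Array probe sets annotated to 1 symbol among these 10 were taken, and each gene was represented by its probe set with the highest mean signal over the arrays, with every probe set of BCL2L11 described as well. This gave 10 of the 18244 genes on the array and 49 of the 45278 probe sets with 1 gene symbol. All 10 genes were among the 11926 that lay above the array median on at least 2 arrays and were tested.

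The arrays cover 2 human cell lines from lung cancer, HCC827, whose EGFR gene carries an activating mutation, and A549, whose does not. The lines were grown as flat 2D cultures (200000 cells in 21 cm2 dishes, 7 days) or on a 3D collagen scaffold (100000 cells, 14 days). Each culture was labelled control-treated or was given 1 µM of the EGFR kinase inhibitor gefitinib. There were 8 arrays, 1 per condition, so no condition was replicated. In 3D gefitinib was given for the last 3 days, after 11 days; the labels also give a start after 4 days in a sentence that names 3D again, read here as the 2D start, and the 2D duration is not stated. The 3D samples were broken up with beads at 50 Hz for 5 min and extracted with a micro kit and the 2D samples with a mini kit, so culture and RNA preparation cannot be told apart. From each sample 100 ng of total RNA was labelled.

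The family is built from groups of proteins with opposed roles. The anti-apoptotic proteins BCL2, BCL-XL (from BCL2L1) and MCL1 hold back the effectors BAX and BAK (from BAK1), which open the outer mitochondrial membrane when released. The BH3-only proteins BIM (BCL2L11), BMF, BIK, NOXA (PMAIP1) and BID tip this balance towards death by binding the anti-apoptotic proteins or activating the effectors. In lung cancer cells that depend on mutant EGFR, BIM is known as a main mediator of death under EGFR inhibitors. ERK signalling downstream of EGFR marks the BIM protein for degradation, a step that RNA does not show.

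RefSeq promoter windows (GRCh38.p14) were found for 8 of the 10 genes, 14 windows in all. A window of each gene that the results turn on is shown, 250 bases up to the transcription start on the gene's strand, 5′ to 3′. BMF and PMAIP1 had the largest culture differences of the 10 genes in HCC827, and BCL2L11 was the gene with every probe set described. Capitals mark matches to a FOXO site (GTAAACA), to the GC box (GGGCGG) or to the CCAAT box, whose letters are its name, each on either strand. No match overlapped another.
BMF, chr15:40108880-40109129, minus strand: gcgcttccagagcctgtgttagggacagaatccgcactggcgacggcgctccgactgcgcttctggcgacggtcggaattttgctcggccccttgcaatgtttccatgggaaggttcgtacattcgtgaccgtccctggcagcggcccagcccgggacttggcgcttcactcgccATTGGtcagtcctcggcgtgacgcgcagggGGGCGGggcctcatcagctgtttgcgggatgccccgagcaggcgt
PMAIP1, chr18:59899746-59899995, plus strand: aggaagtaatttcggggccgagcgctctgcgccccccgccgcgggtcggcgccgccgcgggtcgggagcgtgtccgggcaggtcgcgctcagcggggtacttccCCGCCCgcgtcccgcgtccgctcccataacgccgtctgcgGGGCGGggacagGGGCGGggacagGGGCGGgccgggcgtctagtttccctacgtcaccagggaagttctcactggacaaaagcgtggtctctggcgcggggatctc
BCL2L11, chr2:111120664-111120913, plus strand: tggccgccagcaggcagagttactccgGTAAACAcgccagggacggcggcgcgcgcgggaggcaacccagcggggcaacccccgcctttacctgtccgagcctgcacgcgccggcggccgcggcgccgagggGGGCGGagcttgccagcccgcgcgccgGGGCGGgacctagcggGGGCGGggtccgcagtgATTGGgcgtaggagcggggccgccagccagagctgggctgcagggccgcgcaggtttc
The BCL2L11 window held the FOXO site, 217 bases before the start; no other window of these genes held one, and 2.98% of all 35116 promoter windows of this length did. GC boxes were common, in 42.6% of all windows, with 4 in the PMAIP1 window, 3 in that of BCL2L11 and 1 in that of BMF. The CCAAT box occurred in 32.0% of all windows and once each in those of BMF and BCL2L11. For BMF this is the window printed here. Another BMF window, not printed, held neither a GC box nor a CCAAT box. The E box CACGTG, in 6.34% of all windows, was in none of the 3 printed here; it occurred 4 times in that of BAX and once each in 2 of the 5 windows of BID. These are matches of letters and not measured sites.

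The values are log2 signals. Array medians lay between 7.27 and 7.34, so a signal near 7.3 is that of a middling probe set, and the mean of the background control probe sets lay between 6.63 and 6.77. As to the labels, all 5 epithelial markers lay above the array median on every array, and the markers of each line (NKX2-1 and SFTA2 for HCC827; ALDH1A1, ALDH3A1 and AKR1B10 for A549) separated the lines. Of the other marker lists, 0 of 8 fibroblast, 0 of 5 endothelial, 1 of 5 leukocyte and the 1 measured red cell marker were above the median on every array. The HCC827 arrays labelled 2D control and 2D gefitinib stood apart. All 6 readouts of EGFR signalling fell with gefitinib in the 3D pair of that line and were higher on the array labelled gefitinib in its 2D pair; DUSP6, a phosphatase induced by ERK, differed by -3.32 in 3D and by 3.64 in 2D. These 2 arrays are therefore named by their labels, and line differences and A549 results are given with and without them. The culture differences of HCC827, and that between the lines in the culture effect, need these arrays and cannot be had without them.

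Tests used limma with Benjamini-Hochberg adjustment over the 11926 genes, two-sided, and a gene was called at an adjusted p under 0.05. With 1 array per condition the error of the 8-array fit is the change of the gefitinib difference between cultures within a line, not scatter between replicates. Values after ± are standard errors of the fit, and a pair of single arrays has no error. In bulk RNA, fewer cells of a kind and less RNA per cell cannot be told apart.

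**Figure D1:**
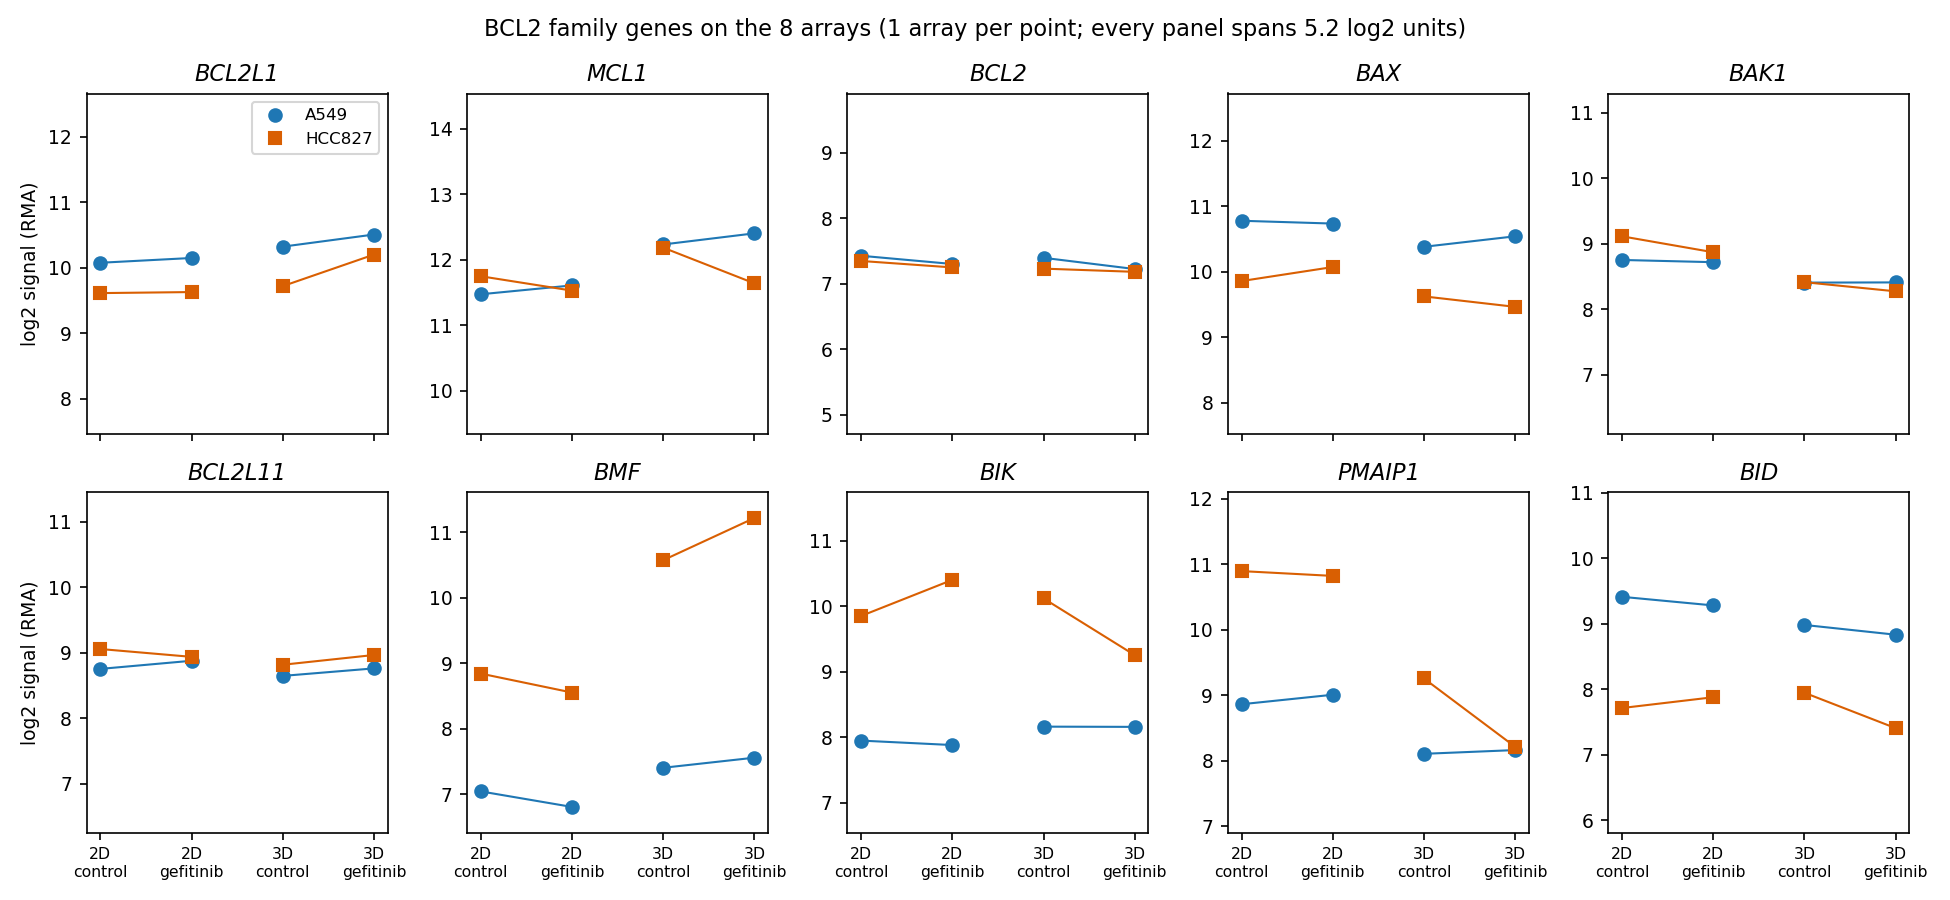
Log2 RMA signal (vertical axis) of the 10 genes on each of the 8 arrays, by culture and treatment (horizontal axis); circles are A549, squares are HCC827, each point is 1 array, and lines join the control and gefitinib arrays of 1 culture. The lines stand apart most in BMF and BIK (HCC827 higher) and BID (A549 higher), and BCL2L11 is nearly level at 8.65 to 9.06.

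The first comparison was between the lines, 4 arrays each. HCC827 had higher signals of the BH3-only genes BMF, BIK and PMAIP1 than A549 and lower signals of BID, the effector BAX and the anti-apoptotic BCL2L1. Thus 6 of the 10 genes were called, 3 in each direction, against a background of 48.1% of all tested genes (22% higher, 26.1% lower). The median difference was 0.0055 for the 10 genes and -0.027 for all tested genes. The remaining 4 genes, BCL2L11, MCL1, BCL2 and BAK1, did not pass.

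BMF, a BH3-only protein tethered to the cytoskeleton until it is released, differed most with the probe sets used. Its signals in A549 were 7.04 and 6.80 in 2D without and with gefitinib and 7.40 and 7.55 in 3D likewise, and in HCC827, in the same order, 8.84, 8.55, 10.57 and 11.21. Every HCC827 array was above every A549 array. With the probe set used, the difference was 2.59 ± 0.19, or 6.04-fold (adjusted p = 0.00134). Its lowest A549 signal was just above the background controls, whose mean reached 6.77. All 4 BMF probe sets were higher in HCC827, the others by 0.31, 0.51 and 1.15. Over the settings run, the difference ranged from 1.14 to 3.41.

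BIK, a BH3-only protein of the endoplasmic reticulum, showed the same separation. A549 gave 7.95, 7.88, 8.16 and 8.16 in the order used for BMF, and HCC827 gave 9.85, 10.40, 10.12 and 9.25. The difference was 1.87 ± 0.25, or 3.65-fold (adjusted p = 0.0061), and all 3 probe sets lay in this direction.

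PMAIP1 encodes NOXA, which binds MCL1 in particular. Its signals were 8.87, 9.01, 8.11 and 8.17 in A549 and 10.90, 10.83, 9.26 and 8.22 in HCC827. The HCC827 3D gefitinib array lay within the range of A549, so the lines overlapped. The difference was 1.26 ± 0.18 (adjusted p = 0.00738), and without the HCC827 2D arrays it was 0.60 ± 0.09 (adjusted p = 0.000106).

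BID, which caspase 8 cleaves to carry a death receptor signal to mitochondria, was the BH3-only gene that stood lower in HCC827. A549 arrays read 9.41, 9.28, 8.98 and 8.83 and HCC827 arrays 7.71, 7.88, 7.95 and 7.41. The difference was -1.39 ± 0.14 (adjusted p = 0.0029), and all 4 probe sets were lower in HCC827.

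Among the effectors, BAX was lower in HCC827 as well. It read 10.77, 10.73, 10.38 and 10.54 in A549 against 9.85, 10.07, 9.62 and 9.46 in HCC827, with no overlap, and differed by -0.85 ± 0.11 (adjusted p = 0.00551). The other BAX probe set, 11759444_x_at, differed by only -0.20. There the lines overlapped, with 8.78 to 9.09 in A549 and 8.49 to 8.95 in HCC827. BAK1, with a range of 8.27 to 9.11 over all arrays, differed by 0.10 ± 0.08 (adjusted p = 0.369). With the probe sets used, the 4 genes whose lines did not overlap were thus BMF, BIK, BAX and BID. Over all tested genes 32.6% did not overlap, 14.4% with HCC827 higher and 18.2% with HCC827 lower.

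Of the anti-apoptotic genes, BCL2L1 was called. A549 gave 10.08, 10.15, 10.33 and 10.51 and HCC827 gave 9.62, 9.63, 9.72 and 10.20, so the HCC827 3D gefitinib array reached the range of A549. The difference was -0.47 ± 0.12 (adjusted p = 0.0313), and its 3 probe sets were all lower in HCC827; with cyclic loess scaling between arrays the call was lost (-0.35, adjusted p = 0.113). BCL2 was near the array median everywhere, from 7.19 to 7.43, and above it on 3 of the 8 arrays.

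These calls depend on which arrays set the error. Each time 1 of the 4 A549 arrays was left out, 3 of the 10 genes (BMF, BIK and BID) were called. Of all 11926 genes, 1838 to 1894 were called in these fits, in which the error comes from HCC827 alone. The adjusted p then ranged from 0.0611 to 0.0662 for PMAIP1, from 0.0668 to 0.0845 for BAX and from 0.201 to 0.246 for BCL2L1. Without both HCC827 2D arrays the comparison is within 3D. The differences were then 3.41 ± 0.11 for BMF (adjusted p = 7.98e-10), 1.53 ± 0.09 for BIK (adjusted p = 7.55e-08), -1.23 ± 0.09 for BID (adjusted p = 3.75e-07), -0.92 ± 0.09 for BAX (adjusted p = 5.27e-06) and -0.45 ± 0.09 for BCL2L1 (adjusted p = 0.000704). In that fit 7 genes were called, against 69% of all genes (30.3% higher, 38.7% lower), MCL1 being added at -0.41 ± 0.09 (adjusted p = 0.0023), while BAK1 turned to -0.065 ± 0.086 (adjusted p = 0.523).

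**Figure D2:**
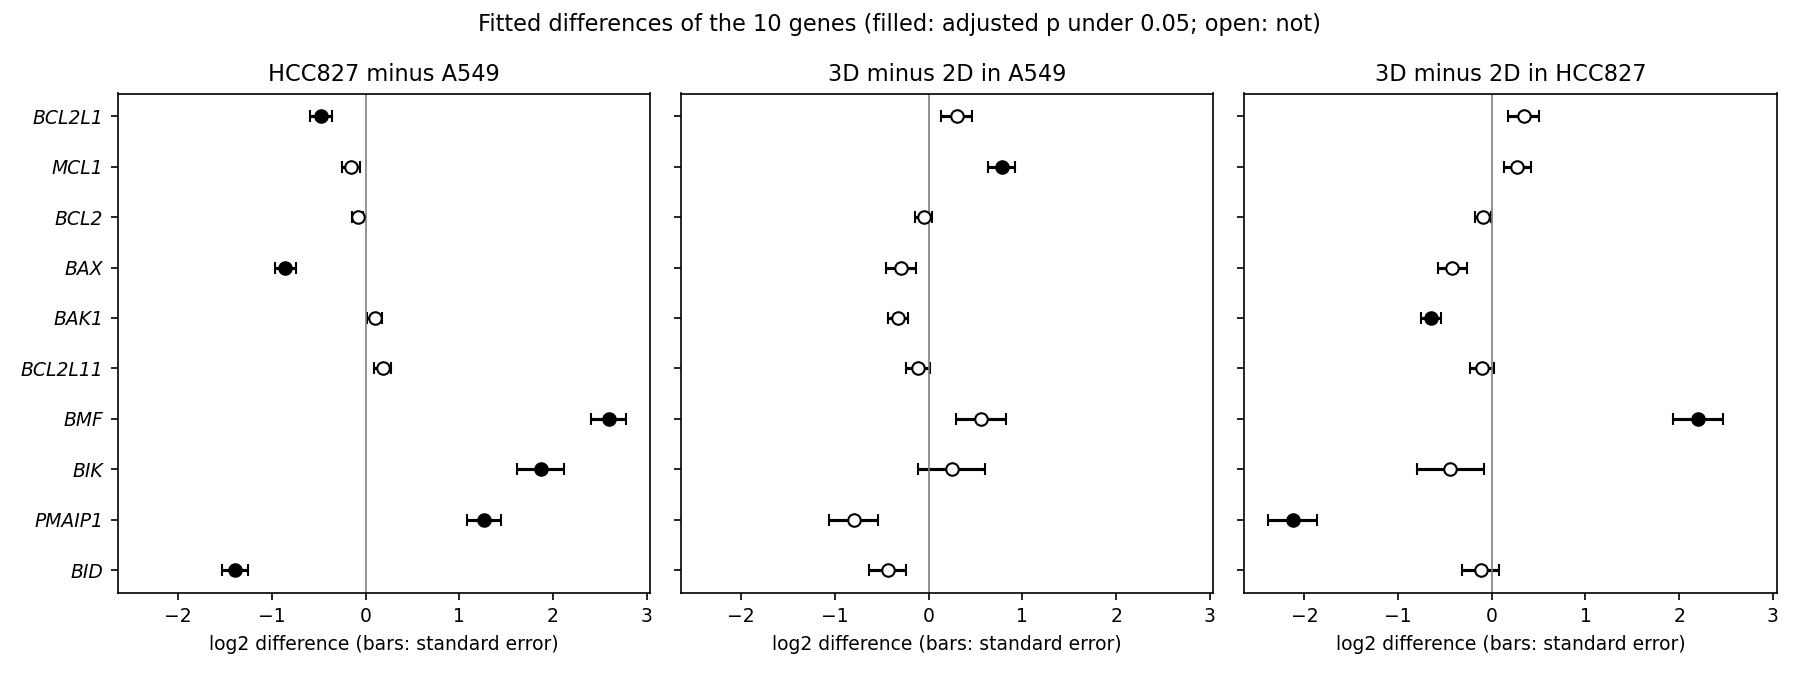
Fitted log2 differences (horizontal axis) of the 10 genes with their standard errors (bars) from the 8-array limma fit, for HCC827 minus A549 and for 3D minus 2D in each line; filled points have an adjusted p under 0.05. BMF stands to the right in the line comparison (2.59) and in the culture comparison of HCC827 (2.20), and PMAIP1 to the left in the latter (-2.12).

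The second comparison was 3D against 2D, within each line. In HCC827 BMF rose on the scaffold by 2.20 ± 0.26, or 4.59-fold (adjusted p = 0.0126), while PMAIP1 fell by 2.12 ± 0.26, or 4.36-fold (adjusted p = 0.0128), and the effector BAK1 fell by 0.65 ± 0.11 (adjusted p = 0.0202). These were 3 of 10 genes, against 33.4% of all tested genes (19.7% higher, 13.7% lower). In A549 MCL1, a short-lived anti-apoptotic protein, rose by 0.78 ± 0.14, or 1.71-fold (adjusted p = 0.0313), and was the 1 gene of 10 called, against 22.3% of all genes (16.3% higher, 6.01% lower). Medians were -0.11 for the 10 genes and 0.085 for all genes in HCC827, and -0.083 and 0.13 in A549. The 3D and 2D arrays did not overlap in 8 of 10 genes in A549 (4 higher and 4 lower in 3D), against 79.7% of all genes (51.5% and 28.2%), and in 6 of 10 in HCC827 (2 higher, 4 lower), against 67.2% (40% and 27.2%), so both shares were near the background.

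RNA quality differed with culture. The actin control probe sets, which compare the 3′ and 5′ ends of the transcript, differed by 2.10 ± 0.47 (SD, n = 4) in 3D and by -0.096 ± 0.037 (SD, n = 4) in 2D, and the GAPDH probe sets by 0.91 ± 0.48 and -0.023 ± 0.023. Each had an exact permutation p = 0.0286 (two-sided, 70 splits), the smallest that 4 against 4 arrays can give. The 4 arrays of a culture are 2 lines by 2 treatments, not replicates, and the splits ignored this matching. On the 3D arrays the 5′ probe sets of both transcripts thus read lower relative to the 3′ ones than on the 2D arrays, without overlap. Its part in the culture differences was not tested.

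Probe sets of 1 gene therefore matter here. Averaged over the control and gefitinib pairs, BMF kept its direction in all 4 probe sets. The range was 0.13 to 2.20 in HCC827 and 0.10 to 0.56 in A549. The 3 sets not used for the gene reached at most 0.33 in HCC827. There they read 0.0175, -0.037 and -0.074 in the control pair and 0.25, 0.51 and 0.74 in the gefitinib pair. In A549 the set 11737438_a_at was at -0.013 in the gefitinib pair. PMAIP1 was lower in 3D in both of its probe sets, by -2.12 and -1.19 in HCC827 and by -0.80 and -0.31 in A549. The call of MCL1 did not hold up in this way. Its 6 probe sets ran from -1.17 to 0.78 in A549 and from -2.20 to 0.41 in HCC827, with 3 of 6 and 2 of 6 above 0, and the mean of the 6 gave -0.14 in A549 (adjusted p = 0.57).

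BAK1 also had both directions, 2 of its 5 probe sets being above 0 in HCC827 (-0.85 to 0.17); of the 4 whose mean lay above the background controls, 1 was above 0, at 0.0088. For BCL2L1, 2 of 3 probe sets were higher in 3D in each line and the third was lower, by -0.92 in A549 and -0.94 in HCC827. Neither BCL2L1 (0.30 ± 0.17 in A549 and 0.34 ± 0.17 in HCC827) nor BAX (-0.30 ± 0.16 and -0.42 ± 0.16) was called in either line by the 8-array fit. The other BAX set went the other way, by 0.15 in A549 and 0.41 in HCC827.

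**Figure D3:**
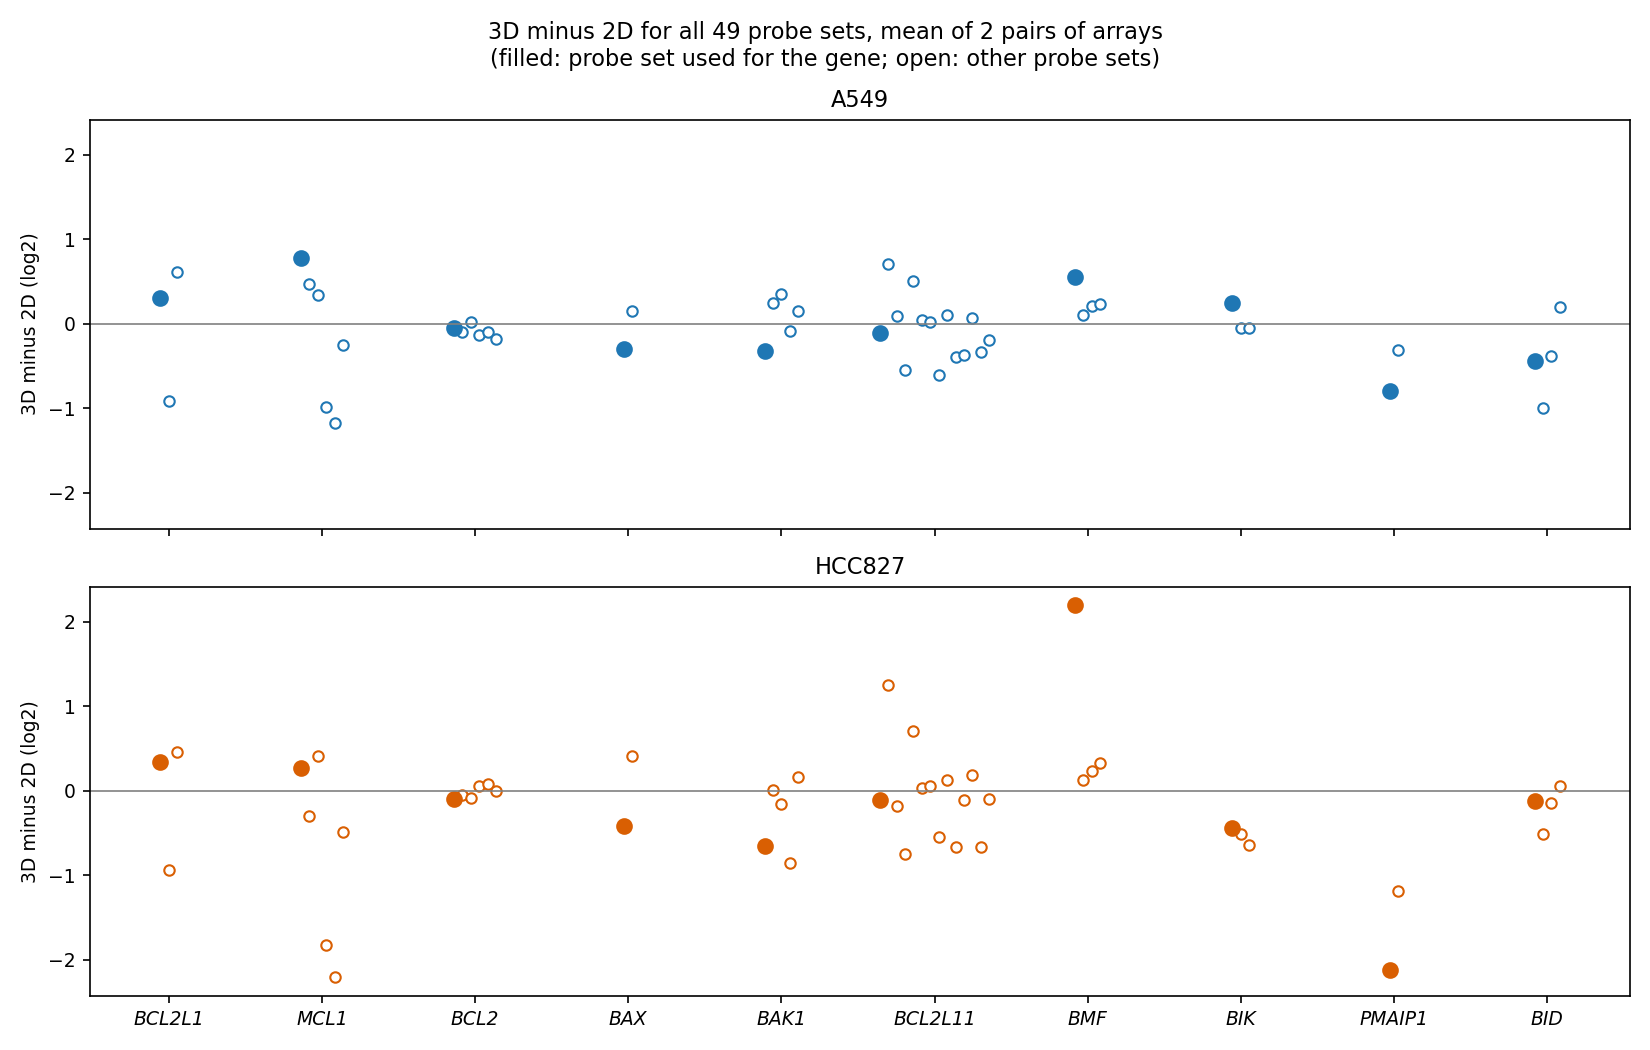
The 3D minus 2D log2 difference (vertical axis), averaged over the control and gefitinib pairs, for all 49 probe sets of the 10 genes (horizontal axis) in A549 (top) and HCC827 (bottom); filled points are the probe sets used for the gene and open points the others. MCL1 and BCL2L11 spread to both sides of 0, MCL1 from -2.20 to 0.41 in HCC827, whereas both points of PMAIP1 lie below 0.

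Per pair of arrays, the BMF probe set used for the gene was higher in 3D by 0.36 (control) and 0.75 (gefitinib) in A549. In HCC827 it was higher by 1.73 and 2.66. PMAIP1 was lower in all 4 pairs, by -0.76 and -0.84 in A549 and by -1.64 and -2.61 in HCC827. With the probe sets used, the differences of both genes were larger in size in the HCC827 pairs, which include the arrays named by their labels. The difference between the lines in the culture effect was 1.64 ± 0.37 for BMF (adjusted p = 0.223) and -1.32 ± 0.37 for PMAIP1 (adjusted p = 0.257), so neither was called. By the limma fit 0 of the 10 genes and 0% of all tested genes passed in this comparison, while 2 of the 10 and 1696 of all 11926 genes had an unadjusted p under 0.05.

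The culture counts moved with single arrays. Without A549 3D control, A549 3D gefitinib, A549 2D control or A549 2D gefitinib, 0 genes of the whole table were called in either line; adjusted p was then 0.0868 to 0.0885 for BMF and PMAIP1 in HCC827, 0.134 to 0.136 for BAK1 and 0.431 to 0.466 for MCL1 in A549. Without HCC827 3D control, HCC827 3D gefitinib, HCC827 2D control or HCC827 2D gefitinib, the A549 count was 8 of 10 each time, and without both 2D arrays of HCC827 it was also 8, against 64.1% of all genes (41.7% higher, 22.4% lower): MCL1, BMF (0.56 ± 0.11), BCL2L1 and BIK higher and PMAIP1 (-0.80 ± 0.09), BID, BAK1 and BAX lower. The HCC827 count was 7 without its 3D control or 2D control array, when 7719 of all 11926 genes were called. It was 4 without either of its gefitinib arrays, against 6954 (2D) and 6958 (3D) of all genes. The difference between the lines gave 4 called genes without either HCC827 control array, against 4536 of all genes. It gave 3 without either HCC827 gefitinib array, against 3629 (2D) and 3630 (3D) of all genes. BMF and PMAIP1 were among those called each time. The directions listed for A549 are those of the probe sets used. There the other BIK sets were at -0.053 and -0.052 and the other BAX set at 0.15. Above 0 were also 3 of 5 BAK1 sets and 1 of 4 BID sets.

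The third question was the response to gefitinib. In A549, which lacks the mutation, the 10 genes differed by -0.24 to 0.15 between the arrays of the 2D pair and by -0.17 to 0.19 in the 3D pair. None reached a difference of 0.5 in either direction, which 0.922% of all genes did in 2D (0.671% higher, 0.252% lower) and 0.721% in 3D (0.461% higher, 0.26% lower). By limma over both cultures 0 of the 10 genes and 0% of all genes were called in A549; 86 of all genes and 0 of the 10 had an unadjusted p under 0.05.

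In HCC827 on the scaffold, gefitinib went with higher BMF and BCL2L1 and lower PMAIP1, BIK, MCL1 and BID. These 6 of 10 genes were called, 2 higher and 4 lower, against 27.2% of all tested genes (6.78% higher, 20.4% lower), in a fit of 6 arrays without the HCC827 2D pair. The median was -0.15 for the 10 genes and -0.11 for all genes. This fit takes its error from A549 alone, with 1 residual degree of freedom, and the HCC827 side is 1 array against 1.

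RNA quality and epithelial markers moved with this pair. The 3′ minus 5′ difference was highest of the 8 arrays on the HCC827 3D gefitinib array, at 2.64 for actin and 1.57 for GAPDH, against 2.34 and 0.97 on its control. Of 5 epithelial markers 4 fell in the same pair, KRT8 by 1.18, KRT18 by 1.10, KRT19 by 1.04 and EPCAM by 0.52. Of the 3 tested leukocyte markers CD68 fell by 1.45, of the 2 tested endothelial markers KDR fell by 0.54, and of the 2 tested fibroblast markers LUM rose by 1.09 (limma, all adjusted p between 2.98e-05 and 0.0117). Their part in the gefitinib results of this pair was not tested.

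PMAIP1 fell by 1.04 ± 0.12, or 2.06-fold (adjusted p = 0.000211), from 9.26 to 8.22. Both probe sets were lower, by -1.04 and -1.22. BIK fell by 0.87 ± 0.12 (adjusted p = 0.000625), from 10.12 to 9.25, with all 3 probe sets lower (-0.87 to -0.44). BID fell by 0.54 ± 0.12 (adjusted p = 0.00861), from 7.95 to 7.41, and all 4 of its probe sets were lower; with the set of largest variance it was at -0.30 (adjusted p = 0.138). All 3 genes are BH3-only.

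BMF was the BH3-only gene that rose, by 0.64 ± 0.15, or 1.56-fold (adjusted p = 0.0104), from 10.57 to 11.21. Of its 4 probe sets 3 were higher (-0.12 to 0.64), and the mean of all 4 gave 0.20 (adjusted p = 0.134). BCL2L11 went from 8.82 to 8.97, a difference of 0.15 ± 0.12 (adjusted p = 0.388).

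Among the anti-apoptotic genes the directions were split. MCL1 fell by 0.54 ± 0.13 (adjusted p = 0.0115), from 12.19 to 11.64, and 5 of its 6 probe sets were lower. BCL2L1 rose by 0.48 ± 0.12 (adjusted p = 0.0151), from 9.72 to 10.20, and all 3 probe sets were higher (0.12 to 0.48), but the call was lost with their mean (0.26, adjusted p = 0.0785) and with the set of largest variance (0.12, adjusted p = 0.532). BCL2 (-0.049 ± 0.122), BAX (-0.16 ± 0.13) and BAK1 (-0.14 ± 0.12) were not called.

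Scaling matters to these directions. With cyclic loess between arrays the median of all genes moved by 0.16, from -0.11 to 0.050, and 1678 of 2819 called genes were higher (59.5%) in place of 809 of 3243 (24.9%). Of the 6 genes, 5 were still called in the same direction; MCL1 was at -0.22 (adjusted p = 0.199). The uncalled BAX, BAK1 and BCL2 turned to small positive values.

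The gefitinib difference in HCC827 3D was then set against that in A549. It was lower for PMAIP1 by -1.14 ± 0.15 (adjusted p = 0.000803), for BIK by -0.83 ± 0.15 (adjusted p = 0.0042) and for MCL1 by -0.70 ± 0.16 (adjusted p = 0.0124), and higher for BMF by 0.69 ± 0.18 (adjusted p = 0.025). That made 4 of 10 genes, against 20.5% of all genes (3.56% higher, 17% lower), with medians of -0.17 for the 10 and -0.14 for all. The difference of BCL2L1 (0.35 ± 0.15, adjusted p = 0.119) and of BID (-0.40 ± 0.15, adjusted p = 0.0819) was not called. The mean of all probe sets left BMF at 0.25 (adjusted p = 0.146) and MCL1 at -0.52 (adjusted p = 0.0503), and the set of largest variance left MCL1 at -0.50 (adjusted p = 0.11). With cyclic loess MCL1 was at -0.29 (adjusted p = 0.207), BCL2L1 was called at 0.67 (adjusted p = 0.0189) and 822 of 1546 called genes were higher (53.2%) in place of 425 of 2449 (17.4%), the median of all genes moving by 0.18.

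**Figure D4:**
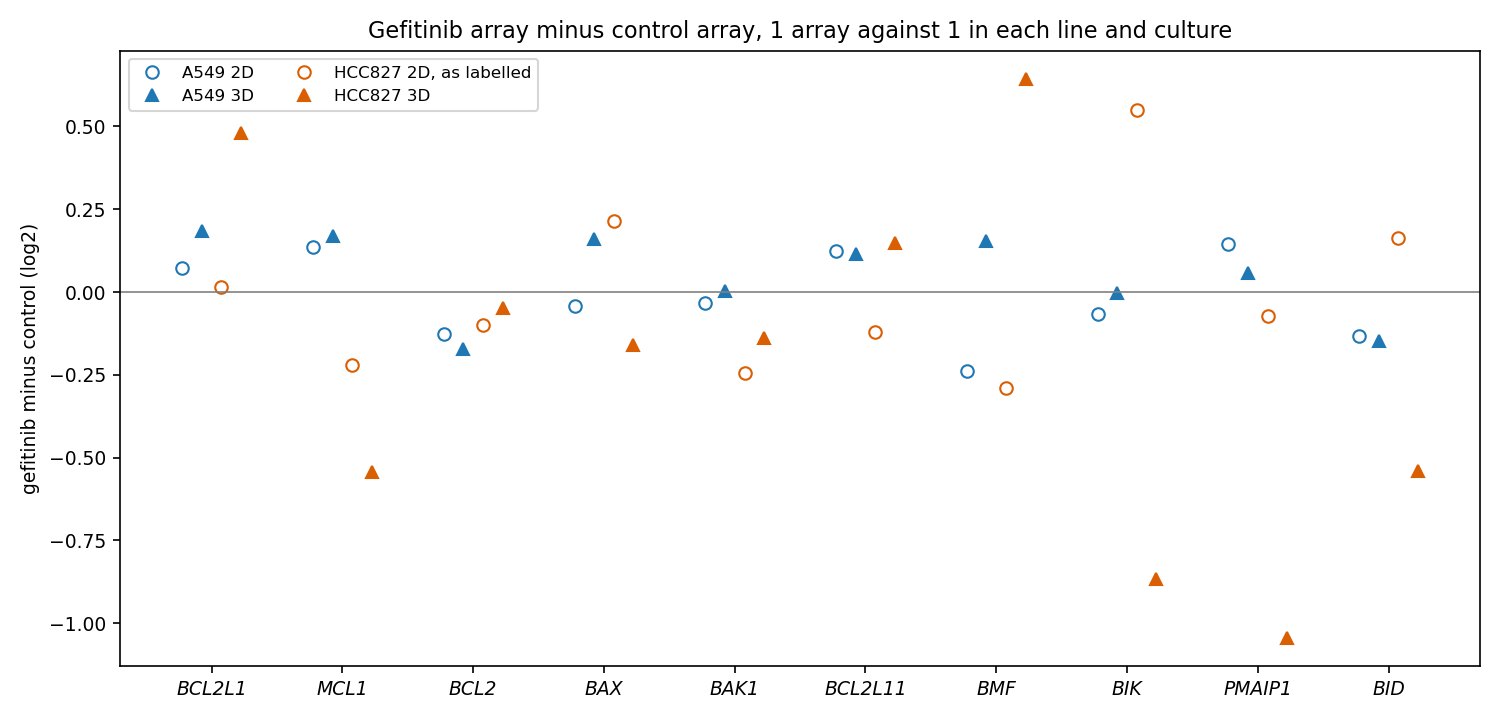
Gefitinib array minus control array in log2 (vertical axis) for the 10 genes (horizontal axis) in the 4 pairs; circles are 2D, triangles 3D, blue A549 and orange HCC827, with 1 array against 1 and no error bar. The A549 points lie between -0.24 and 0.19, and the HCC827 3D points reach from -1.04 (PMAIP1) to 0.64 (BMF).

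The HCC827 arrays labelled 2D gave another picture. As labelled, gefitinib went with BIK higher by 0.55, the 1 gene of 10 past 0.5, against 15.4% of all genes (7.12% higher, 8.28% lower). The others were BAX 0.21, BID 0.16, BCL2L1 0.016, PMAIP1 -0.073, BCL2 -0.099, BCL2L11 -0.12, MCL1 -0.22, BAK1 -0.24 and BMF -0.29. In the 3D pair 5 of 10 were past 0.5 (1 higher, 4 lower), against 16.9% of all genes (4.03% higher, 12.9% lower).

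Signs in the 2 HCC827 pairs were opposite for 5 of the 10 genes (BIK, BID, BAX, BMF and BCL2L11) and for 59.4% of all tested genes. They were the same for PMAIP1, MCL1, BCL2L1, BCL2 and BAK1. These signs are those of the probe set used for each gene, and other sets could differ. The other PMAIP1 set was at 0.076 in 2D and -1.22 in 3D, and the MCL1 set 11715487_a_at at 0.21 and -0.83. Conversely, the other BAX set had the same sign in both, at -0.075 and -0.037. Over both cultures as labelled, 0 of the 10 genes and 0% of all genes were called by limma, with 1 of the 10 (MCL1) and 487 of all genes at an unadjusted p under 0.05. Leaving out either HCC827 2D array gave 6 called genes of the 10, as leaving out both did, against 3235 to 3243 of all 11926 genes. Leaving out either HCC827 3D array gave 1, against 2666 to 2675 of all genes.

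**Figure D5:**
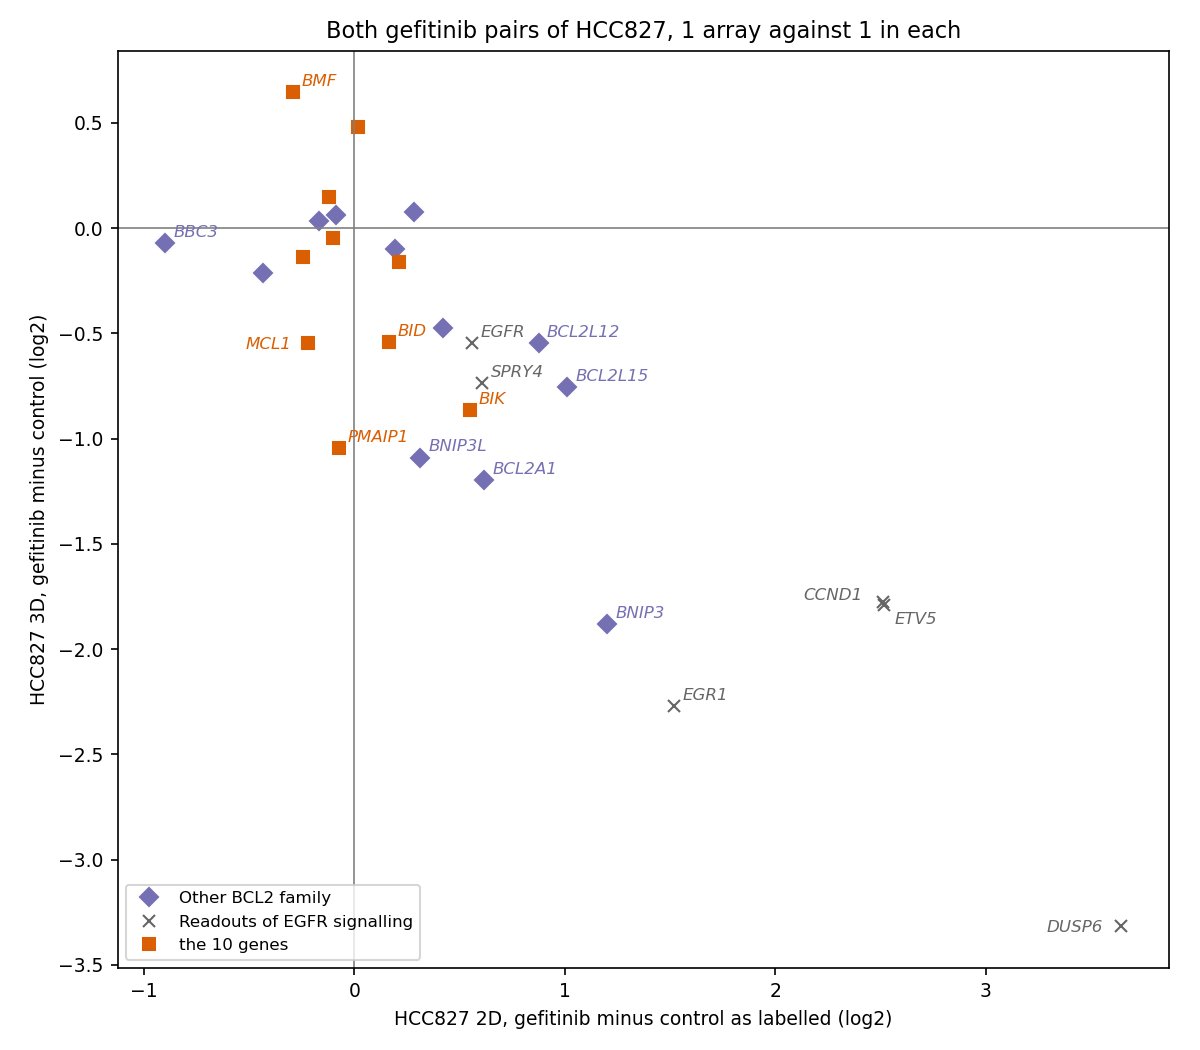
Gefitinib minus control in log2 in the HCC827 2D pair as labelled (horizontal axis) against the 3D pair (vertical axis), 1 array against 1 each, for the 10 genes (squares), other BCL2 family genes (diamonds) and readouts of EGFR signalling (crosses). All 6 readouts lie at the lower right, with DUSP6 at 3.64 and -3.32, and PMAIP1 lies low at -0.073 and -1.04.

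BCL2L11 had 14 probe sets. The one with the highest mean varied little and read 8.76, 8.88, 8.65 and 8.76 in A549, in the order used for BMF, and 9.06, 8.94, 8.82 and 8.97 in HCC827. The spread over the 8 arrays was 0.13 (SD), and HCC827 exceeded A549 by 0.18 ± 0.09 (adjusted p = 0.164). Culture differences were -0.11 ± 0.13 in both lines.

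Other probe sets of BCL2L11 did not share this pattern. The set 11762576_at read 7.94, 8.19, 8.65 and 8.90 in A549 and 8.56, 8.10, 9.57 and 9.60 in HCC827, so its 3D arrays were all above its 2D arrays, by 0.71 in A549 and 1.26 in HCC827. With this set, which has the largest variance, in place of the first, both were called (adjusted p = 0.0325 and 0.00703), as was the line difference of 0.54. The set 11718080_a_at went the other way, with 7.77, 8.07, 7.27 and 7.47 in A549 and 8.60, 8.44, 7.80 and 7.76 in HCC827, or -0.55 and -0.74.

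Over all 14 sets, 7 were higher and 7 lower in 3D in A549 (-0.60 to 0.71), and 6 were higher and 8 lower in HCC827 (-0.74 to 1.26). For the lines, 11 sets were higher in HCC827 and 3 lower (-0.11 to 0.54). With gefitinib in HCC827, 10 sets were higher and 4 lower in 3D (-0.21 to 0.37), and 8 higher and 6 lower in 2D as labelled (-0.47 to 0.51). However, 6 of the 14 sets had a mean no higher than the background controls. Of the other 8, 5 were higher and 3 lower in 3D in A549 and 4 and 4 in HCC827, 7 were higher and 1 lower in HCC827 than in A549, and with gefitinib in HCC827 5 were higher and 3 lower in 3D and 2 and 6 in 2D as labelled. BCL2L11 makes several spliced transcripts, and which of them each set reads was not analysed here. The direction of the culture difference thus depends on the probe set.

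By the root mean square of differences over the 8 arrays, after centring each gene on its mean, the tested genes closest to BCL2L11 were WDR20 (0.057), JADE3 (0.059) and TCFL5 (0.060), against a median of 0.41 over 11925 genes. Since BCL2L11 was nearly level, this picks genes that were nearly level too.

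Other genes of the pathway were counted from lists. The counts for gefitinib in HCC827 3D stand against 6.78% of all tested genes higher and 20.4% lower, and the RNA quality and marker values of that pair stand beside them. Those with cyclic loess have another background. In that setting 2819 of 11903 genes were called, 1678 of them higher, and the median of all genes was 0.050. Of 12 tested members of the wider BCL2 family, 6 fell with gefitinib in HCC827 3D and none rose, a median of -0.34 against -0.11 for all genes; with cyclic loess 4 fell and none rose. The largest falls were those of BNIP3 (-1.88 ± 0.15, adjusted p = 1.98e-05), a mitophagy receptor induced by low oxygen, the anti-apoptotic BCL2A1 (-1.20 ± 0.13, adjusted p = 0.000131), BNIP3L (-1.09 ± 0.12, adjusted p = 0.000157), a receptor like BNIP3, and BCL2L15 (-0.76 ± 0.12, adjusted p = 0.00149). In the HCC827 2D pair as labelled these 4 were higher, by 1.20, 0.62, 0.31 and 1.01, and the signs of the 2 pairs were opposite in 9 of the 12. BBC3, which encodes the BH3-only PUMA, was lower by -0.90 in that 2D pair and by -0.072 in 3D.

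Of 7 death receptors and adaptors, 5 fell in HCC827 3D with gefitinib and none rose (median -0.49; 3 with cyclic loess), among them the TRAIL receptors TNFRSF10B (-0.82 ± 0.12, adjusted p = 0.000893) and TNFRSF10A (-0.69 ± 0.14, adjusted p = 0.00477). Of 6 inhibitors of apoptosis 2 fell, BIRC5 (-1.61 ± 0.15, adjusted p = 4.82e-05), which encodes survivin and is also needed for cell division, and XIAP (-0.41 ± 0.12, adjusted p = 0.0304); with cyclic loess 1 fell and 1 rose. Of 12 apoptosome genes and caspases 2 fell, CASP8 (-0.90 ± 0.12, adjusted p = 0.000533) and DFFA (-0.49 ± 0.12, adjusted p = 0.0142), a share near that of all genes. Transcription factors that act on these genes gave 1 higher (FOXO4, 0.39 ± 0.12, adjusted p = 0.0346) and 3 lower (E2F1, MYC and RELA) of 12, and with cyclic loess 2 higher and 1 lower.

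Of 10 regulators of the proteins' stability or site, 2 fell with gefitinib in HCC827 3D, the mitochondrial channels VDAC1 (-0.86 ± 0.12, adjusted p = 0.000665) and VDAC3 (-0.41 ± 0.13, adjusted p = 0.0385); with cyclic loess 1 rose and 1 fell. This share, too, was near that of all genes. With 3D culture 1 of the 10 was higher and 1 lower in A549, and 2 were higher and 3 lower in HCC827. FBXW7, a subunit of a ubiquitin ligase that marks MCL1 for degradation, was higher in both lines, by 1.56 ± 0.15 in A549 (adjusted p = 0.0177) and 1.80 ± 0.15 in HCC827 (adjusted p = 0.0106). DYNLL1, a dynein light chain that binds BIM, was lower, by -0.60 ± 0.13 (adjusted p = 0.0402) and -1.34 ± 0.13 (adjusted p = 0.0108), and DYNLL2, the light chain that binds BMF, was lower in HCC827 by -0.93 ± 0.13 (adjusted p = 0.0146). The other calls in HCC827 were TMBIM6 (0.62 ± 0.15, adjusted p = 0.0408) and VDAC2 (-0.65 ± 0.12, adjusted p = 0.0222).

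CYCS, the cytochrome c that BAX and BAK release, was lower in 3D by -1.12 ± 0.14 in A549 (adjusted p = 0.0191) and -1.38 ± 0.14 in HCC827 (adjusted p = 0.011), and AIFM1, another protein of the same space, by -1.10 ± 0.17 (adjusted p = 0.0238) and -1.12 ± 0.17 (adjusted p = 0.0159). These were 2 of 12 apoptosome genes in each line, with none higher. Of the wider BCL2 family 1 of 12 was called in each line, BOK, higher by 0.85 ± 0.12 and 0.68 ± 0.12. Of all tested genes 16.3% were higher and 6.01% lower in A549, and 19.7% and 13.7% in HCC827. Without the HCC827 2D arrays the A549 counts were 1 higher and 4 lower of the 12 apoptosome genes, 6 and 1 of the 12 wider family genes and 3 and 2 of the 10 regulators, against 41.7% and 22.4% of all genes. The RNA quality difference between cultures stands beside these values too.

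Between the lines, 4 of the 12 wider family genes were higher in HCC827 and 2 lower, against 22% and 26.1% of all genes. The higher ones were led by BCL2A1 (1.25 ± 0.31, adjusted p = 0.0328), BOK (0.98 ± 0.08, adjusted p = 0.00193) and BCL2L2, the gene of BCL-w (0.67 ± 0.17, adjusted p = 0.0356). The BH3-only BAD was lower (-0.57 ± 0.12, adjusted p = 0.0186), as was BECN1. Of the 12 transcription factors 6 were higher and 1 lower, with JUN (2.88 ± 0.12, adjusted p = 0.000446), MYC (1.26 ± 0.09, adjusted p = 0.00127) and FOXO3 (1.10 ± 0.09, adjusted p = 0.00172) leading. The counts of these 2 lists were the same with cyclic loess, where 5744 of 11903 genes were called, 3011 of them higher. Without the HCC827 2D arrays 4 of the wider family were higher and 6 lower, and 9 of the transcription factors higher and 2 lower, against 30.3% and 38.7% of all genes; BCL2A1 (1.02 ± 0.09), BOK (0.89 ± 0.09), BCL2L2 (0.40 ± 0.08) and BAD (-0.80 ± 0.11) kept their directions, as did JUN (2.52 ± 0.09), MYC (1.03 ± 0.09) and FOXO3 (0.74 ± 0.09).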

How the data were processed

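Values of 49495 probe sets on 8 arrays were deposited as log2 signals; per the submitters' processing notes they came from RMA in R 3.2.1. A genome build and a further array version are not given in the sources used here. The members and the gene lists were chosen with earlier results of these data known, so no pattern here is independent support for one reported before. Control probe sets (102), probe sets with several symbols (1333) and those not listed or without a symbol (2884) were left out; 45208 of 45278 matched RefSeq (GRCh38.p14) by gene ID. In limma 3.58.1 (R 4.3.3), a fit with line, culture, treatment, line by culture and line by treatment (6 coefficients, 2 residual and 2.36 prior degrees of freedom) gave the comparisons; gefitinib in HCC827 3D came from a fit of 6 arrays with 5 coefficients (1 residual and 9.12 prior degrees of freedom). Variances were moderated with a trend. All 10 members were named, with mostly up to 4 called genes of each list per comparison and the 3 genes nearest to BCL2L11. More than 4 were named of the wider family between the lines and of the regulators for culture in HCC827. BBC3 was named after its values were seen. The fits were tested on simulated data. The number of arrays limits the precision.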

Additional observations from a re-analysis of the deposited data

Results flagged for a closer look

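Among the 10 genes, 4 had a gefitinib difference in HCC827 3D that differed from that in A549 by a test of the difference (limma, 6 arrays): PMAIP1 by -1.14 ± 0.15 (adjusted p = 0.000803), BIK by -0.83 ± 0.15 (adjusted p = 0.0042), MCL1 by -0.70 ± 0.16 (adjusted p = 0.0124) and BMF by 0.69 ± 0.18 (adjusted p = 0.025). BIK also moved in opposite directions in the cultures of HCC827: the array labelled gefitinib was higher than its control by 0.55 in 2D and lower by -0.87 in 3D, with 1 array against 1 in each. That difference between cultures was not tested.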

How the results depend on the processing

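Of 20 calls among the 10 genes, 7 were kept under every alternative run for them: BMF, BIK and BID between the lines, and BIK and PMAIP1 with gefitinib in HCC827 3D and against A549. These line calls faced 16 alternatives, 8 of which left out 1 array. The gefitinib calls faced only 6, and none of those left out an array, so the 2 kinds are not equally tried. The other 13 were lost under at least 1. Of 30 results not called, 20 were called under at least 1. No paired analysis was possible because each group has 1 array, so no replicate numbers pair samples; the matching by line, culture and treatment is already in the fits. Leaving out 1 array gave 3 to 8 called members between the lines, against 1838 to 8584 of all 11926 genes. Culture gave 0 to 8 in A549 (0 to 7648 of all genes) and 0 to 7 in HCC827 (0 to 7719). The difference of culture effects gave 0 to 4 (0 to 4536 of all genes). Gefitinib gave 0 to 6 in HCC827 over both cultures (0 to 3242 of all genes) and 0 to 0 in A549 (0 to 0). For gefitinib in HCC827 3D, leaving out 1 array leaves no error or no estimate and was not run. With the HCC827 2D arrays left out, culture in A549 gave 8 called members (7649 of all genes) and gefitinib in HCC827 6 (3243). With the mean of all probe sets, 8 of the members and 10636 genes in all were tested. Culture in A549 then gave 0 called members (2742 of all genes) and gefitinib in HCC827 3D against A549 gave 2 (1904). With the probe set of largest variance, culture gave 3 called members in A549 and 6 in HCC827. Of all 11465 genes tested in that way, 4669 and 5886 were called. The mean of all probe sets also moved the median culture difference of all genes by -0.10 in A549 and -0.11 in HCC827, and the share of calls that were higher from 73.1% to 54.8% and from 58.9% to 44.4%; largest variance gave 53.3% and 47.3%. All genes called ranged from 0 to 8584 over the comparisons that leave out 1 array.

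A total of 28 values turned their sign; their cause was not tested. Between the lines MCL1 turned to 0.024 (mean of probe sets), 0.25 (largest variance) and 0.014 (cyclic loess), and BAK1 to -0.065 without the HCC827 2D arrays. For culture in A549 the mean of probe sets gave BAK1 0.070 and MCL1 -0.14, and largest variance gave BCL2L1 -0.92, BCL2L11 0.71, BID 0.20, BIK -0.052 and MCL1 -1.17. For culture in HCC827 the mean gave BCL2L1 -0.045 and MCL1 -0.69, largest variance gave BCL2L1 -0.94, BCL2L11 1.26, BID 0.059 and MCL1 -2.20, and cyclic loess gave BCL2L11 0.0071. Leaving out 1 array gave -0.24 to 0.028 for BCL2L11, -0.47 to 0.23 for BID and -1.15 to 0.27 for BIK there. For gefitinib in HCC827 3D cyclic loess gave BAK1 0.014, BAX 0.099 and BCL2 0.013, and against A549 largest variance gave BCL2L1 -0.0098. Of the 40 differences of single pairs, 19 moved by more than the fit's SD under at least 1 alternative. Signals near the array median, as for BCL2, limit what a difference can show.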
